A study of Mus musculus with 23 samples.

Results

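The killer cell lectin-like receptors are surface proteins of natural killer (NK) cells and of some cytotoxic T cells. Transcripts of 9 of them, Klrg1, Klrd1, Klrk1, Klrc1, Klrc2, Klra9, Klra7, Klrb1c and Klre1, were examined in single-cell libraries of spleen and lymph node (LN) from wild-type (WT) mice and mice in which one tyrosine of STAT5B was changed (Y665F or Y665H). The 9 genes were picked by symbol out of 32285 genes in the matrices and 26 whose symbol starts with Klr. Earlier measurements of these libraries, in which the genes were thought to move in opposite directions in the Y665F and Y665H mutants, led to the choice, so the spleen levels are given as a description with no test. The mice were C57BL/6 by the labels (C57BL/6N in the methods) and 2 months old. Spleen gave 1 library each for WT, Y665H and Y665F, each made from CD45+ cells of combined mice, and the labels do not say whether the spleen mutants were heterozygous. LN gave 2 WT, 3 Y665F heterozygous (het) and 2 Y665F homozygous (homo) libraries, and no Y665H library. The labels do not say whether LN replicates are separate mice, so p-values measure only the spread between these samples. The change to phenylalanine is held to be a gain of function and that to histidine a loss of function. Both changes were knocked into the mouse germ line, so every cell of the animal carries them.

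Most of these receptors read the health of a target cell. Klrd1 (CD94) pairs with Klrc1 (NKG2A, inhibitory) or Klrc2 (NKG2C, activating) and binds the nonclassical class I molecule Qa-1. Klrk1 (NKG2D) is an activating receptor for stress-induced ligands and signals through the adaptors Hcst and Tyrobp. Klra9 and Klra7 (Ly49I and Ly49G) are inhibitory receptors for classical MHC class I, and single NK cells express them in varied combinations. Klrg1 binds cadherins and marks mature NK cells and terminally differentiated effector T cells. Klrb1c (NK1.1) is the classical NK marker of C57BL/6 mice, and Klre1 forms dimers with the Klri proteins. STAT5B carries the signals of interleukin-2 and interleukin-15, cytokines on which NK cells and memory CD8 T cells depend.

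All 9 genes lie on chromosome 6 in GRCm38. Klrg1 stands alone at chr6:122270596-122282882, and the other 8 lie in the NK gene complex between positions 128778485 and 130233322, a span of 1455 kb. The genes Klre1 (chr6:129577905-129585827), Klrd1 (chr6:129591782-129598775), Klrk1 (chr6:129610323-129623864), Klrc2 (chr6:129647496-129660689) and Klrc1 (chr6:129666015-129678973) lie in that order, with Klrb1c (chr6:128778485-128789215) on one side and Klra9 (chr6:130178675-130193112) and Klra7 (chr6:130218605-130233322) on the other. Parts of the family are near copies of each other. Of the 31-base words in the annotated transcripts, 53.1% for Klrc1 and 21.6% for Klrc2 recur in another Klr gene, mostly in each other. The share was 57.6% for Klra9, 12.1% for Klrb1c and 3.10% for Klra7, and no word of Klrg1, Klrd1, Klrk1 or Klre1 was shared. Counts of Klrc1, Klrc2 and Klra9 are therefore uncertain by the reads that could belong to a relative.

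The RefSeq promoter windows (GRCm38.p6, 250 bases before to 50 after each start) held 10 entries for 7 of the 9 genes, with none for Klrg1 and Klrd1. They were searched on both strands for 3 short motifs. TTCNNNGAA, the palindrome that STAT proteins bind, occurred in 8.30% of all 32851 promoter windows and in 1 of the 10 entries, which belongs to Klra7. The Runx core TGTGGT occurred in 16.8% of all windows and in 6 of the 10 entries, from the 5 genes Klrb1c, Klrc1, Klrc2, Klre1 and Klrk1. The T-box core AGGTGT occurred in 13.7% of all windows and in 0 of the 10. A match describes letters in a window and is not a binding site. The 250 bases upstream of 3 starts that overlap no annotated Klr exon are shown, because they hold the motif of the STAT family or belong to genes of the complex that were higher in Y665F CD8 T cells of spleen. Klra7 has 2 RefSeq starts, and the window shown lies inside the annotated gene, while that of the outer start held no match. Sequences run 5′ to 3′, and capitals mark TTCNNNGAA in Klra7 and TGTGGT, or its reverse complement ACCACA, in the others.
Klrk1 (chr6:129623865-129624114, minus strand): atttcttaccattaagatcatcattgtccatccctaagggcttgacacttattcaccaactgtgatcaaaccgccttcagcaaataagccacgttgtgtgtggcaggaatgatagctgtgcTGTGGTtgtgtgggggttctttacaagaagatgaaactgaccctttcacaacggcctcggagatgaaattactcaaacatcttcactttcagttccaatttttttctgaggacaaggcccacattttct
Klrc1 (chr6:129678974-129679223, minus strand): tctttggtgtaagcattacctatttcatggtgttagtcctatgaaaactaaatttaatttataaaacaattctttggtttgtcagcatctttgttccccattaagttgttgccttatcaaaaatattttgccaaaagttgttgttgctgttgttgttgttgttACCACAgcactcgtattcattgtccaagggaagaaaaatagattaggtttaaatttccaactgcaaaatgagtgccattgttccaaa
Klra7 (chr6:130231688-130231937, minus strand): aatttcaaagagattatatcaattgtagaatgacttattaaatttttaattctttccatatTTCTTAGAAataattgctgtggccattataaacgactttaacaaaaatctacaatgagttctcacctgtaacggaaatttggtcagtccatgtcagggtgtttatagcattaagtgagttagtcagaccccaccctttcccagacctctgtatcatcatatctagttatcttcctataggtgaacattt

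Cells were sorted into gates by marker UMIs (unique molecular identifiers, each counting 1 captured transcript), and no gate used a member. NK-gated cells had a UMI of Ncr1, 1 of Tyrobp or Fcer1g and none of the CD3 genes or of a B-cell set that included Cd79a and Ms4a1. CD8 T-gated cells had a UMI of Cd8a or Cd8b1, 1 of a CD3 gene and none of Cd4, Foxp3, Ncr1 or the same B-cell set. The spleen NK gate held 216 WT, 185 Y665H and 125 Y665F cells, and the CD8 T gate held 1486, 1086 and 1784. All 10 fixed NK markers were detected in each spleen NK gate, but Ncr1, Tyrobp and Fcer1g define the gate, so only the other 7 bear on it. Levels are given as CPM, the UMIs per 1000000 UMIs of the gate. Markers of neutrophils summed to 27.6 CPM in the WT NK gate against 370 in Y665H and 387 in Y665F, and in the CD8 T gate to 27.8, 1496 and 1335 CPM. In the NK gate, myeloid markers summed to 132 CPM in WT, 462 in Y665H and 136 in Y665F, and B-cell markers to 330 (WT), 596 (Y665H) and 177 CPM (Y665F). The part of these markers in the differences was not tested. In LN, 73.1 to 87.1% of CD8 T-gated barcodes had a productive alpha and beta chain in the matching T-cell receptor library, and 1 NK-gated barcode did, in WT replicate 1. Libraries shared at most 2.89% of the barcodes of the smaller one. LN het replicate 3 and homo replicate 1 were shallow, with medians of 368 and 395 UMIs a barcode against 874 to 3116 in the other 5 LN libraries. The spleen medians were 5046 to 6487. Intervals on spleen values are exact 95% intervals that cover counting error only, since 1 library a genotype gives no measure of the spread between mice. A difference in a gate's sum can come from more cells with a transcript or from more transcript in each, and the sums do not tell these apart.

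In NK-gated spleen cells, only Klrg1 among the 9 members was higher in Y665F and lower in Y665H, each by at least 0.32 on the log2 scale, here called the opposite pattern. Klrg1 stood at 102 CPM in WT, 61.3 in Y665H and 233 in Y665F. The Y665F level was 2.28 times WT (1.76 to 2.96) and the Y665H level 0.602 times WT (0.434 to 0.828), a 3.80-fold distance between the mutants (2.81 to 5.18). Over the 7838 genes with a mean of at least 10 CPM in this gate, 1.72% had the same pattern. A level 2-fold or more above WT was reached by 2.6% of those genes in Y665F and by Klrg1 alone of the members, and 5.29% were 2-fold or more lower, with no member among them. In Y665H 2.04% were 2-fold higher and 2.09% were 2-fold lower, and no member was in either set. The background shares only place the counts, since the members were chosen on this contrast, and both ratios share the WT library.

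More NK-gated cells carried a Klrg1 UMI in Y665F. The share was 30.1% of cells in WT, 22.2% in Y665H and 48.0% in Y665F. After every cell was thinned to 2000 UMIs the shares were 15.3% (10.8 to 20.9), 10.3% (6.30 to 15.6) and 35.2% (26.9 to 44.2). These intervals cover the counting of cells in 1 library. In the B gate, which should lack the gene, Klrg1 was found in 0.0739% of WT cells and in 0 of 1750 Y665H and 0 of 677 Y665F cells, which allows shares of up to 0.171% and 0.443% (3 cells of the total). Median depths of the B gate were lower than those of the NK gate, with 3844 to 3929 UMIs a cell against 4594.5 to 5046.

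**Figure D1:**
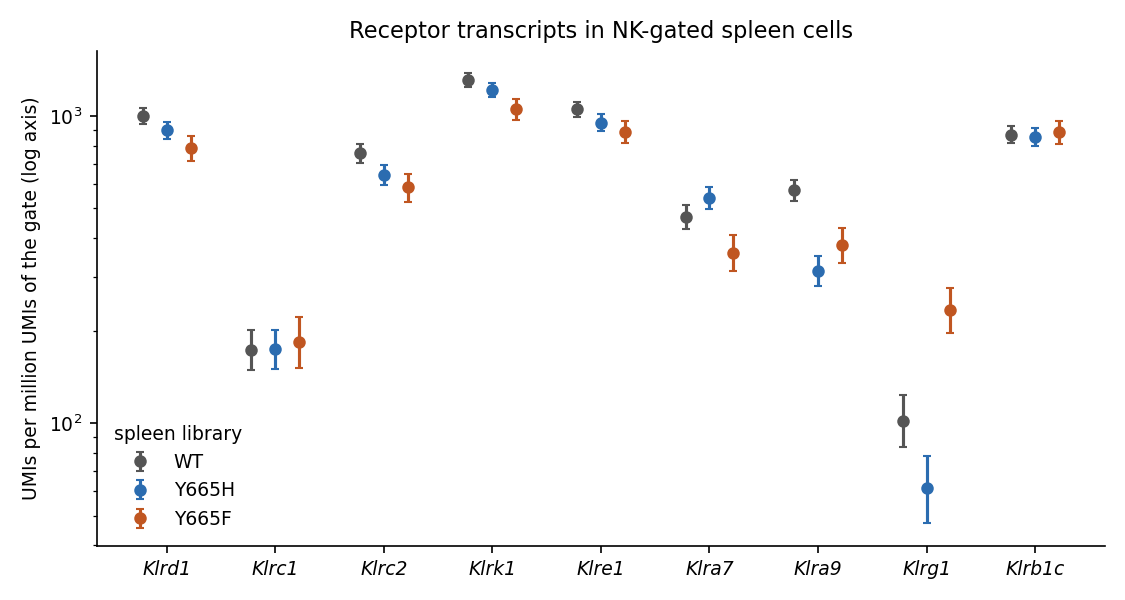
Levels of the 9 receptor transcripts in NK-gated spleen cells, in CPM on a log axis, for 1 library each of WT, Y665H and Y665F, with exact 95% Poisson intervals. Klrg1 runs from 61.3 in Y665H through 102 in WT to 233 in Y665F, while Klrb1c and Klrc1 lie at almost one height in all 3 libraries.

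The CD94 group did not share the order of Klrg1. Klrd1 was at 998 CPM in WT, 900 in Y665H and 784 in Y665F, so both mutants were below WT. Its inhibitory partner Klrc1 lay at 173, 174 and 184 CPM, with ratios to WT of 1.01 (0.814 to 1.24) in Y665H and 1.06 (0.829 to 1.35) in Y665F. The activating partner Klrc2 was at 756 CPM in WT, 644 in Y665H and 585 in Y665F. Klrk1 went from 1306 CPM in WT to 1215 in Y665H and 1053 in Y665F. Klre1 was at 1050.0, 952 and 887 CPM. Each of Klrd1, Klrc2, Klrk1 and Klre1 was therefore highest in WT and lowest in Y665F, with Y665F ratios between 0.775 and 0.845. Parts of that order lay within counting error. The interval of Y665F over Y665H included 1 for Klre1 (0.838 to 1.04) and Klrc2 (0.797 to 1.04). That of Y665H over WT included 1 for Klrk1 (0.861 to 1.005).

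The Ly49 members and NK1.1 behaved each in its own way. Klra9 was lower in both mutants, at 573 CPM in WT, 313 in Y665H and 379 in Y665F, and was found in 60.2%, 36.8% and 40.8% of cells. Klra7 was at 468 CPM in WT, 540.5 in Y665H (1.16 times WT, 1.02 to 1.31) and 358 in Y665F (0.764 times WT, 0.649 to 0.898). Its order was thus the reverse of that of Klrg1. Klrb1c hardly differed, at 869, 853 and 886 CPM, and was found in 95.4, 96.2 and 96.0% of cells. Summed over the members, the level was 6294 CPM in WT, 5653 in Y665H and 5348 in Y665F. The median log2 ratio of the 9 members was -0.31 in Y665F and -0.14 in Y665H, beside -0.11 and -0.02 over all genes of that gate. After thinning to 2000 UMIs the median cell held a UMI of 6 members in WT and of 5 in each mutant. In the B gate at that depth, 98.1% of WT, 98.6% of Y665H and 99.0% of Y665F cells held none. At least 5 members were seen in 82.3% of WT, 74.1% of Y665H and 71.2% of Y665F NK-gated cells.

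Genes of the family outside the 9 were read in the same gate, where 12 of the other 17 had a mean of at least 10 CPM. Klrb1b, an inhibitory receptor that recognizes Clec2d, had the Klrg1 order, with 159 CPM in WT, 94.9 in Y665H and 284 in Y665F. Its ratios to WT were 0.596 (0.460 to 0.769) in Y665H and 1.78 (1.43 to 2.22) in Y665F. Klra5 also had that order, at 14.3, 5.75 and 93.5 CPM, but its 57 UMIs in Y665F came from 9 of 125 cells, and its Y665H ratio had an interval from 0.128 to 1.10. Several Ly49 genes were lower in Y665F than in WT. Klra4 (Ly49D, activating) went from 1182 CPM in WT to 891 in Y665H and 502 in Y665F. Klra8 (Ly49H, activating) was at 965, 820.3 and 566 CPM, Klra3 (Ly49C, inhibitory) at 312, 307 and 156 CPM, and Klra1 (Ly49A, inhibitory) at 105, 94.9 and 47.6 CPM. Klrb1f was at 383 CPM in WT, 502 in Y665H and 313 in Y665F, and Klri2, a partner of Klre1, at 392, 380.4 and 295 CPM. Klra6 was at 11.4, 34.5 and 22.96 CPM, Klrb1a at 207, 196 and 225, Klrc3 at 33.3, 29.7 and 24.6, and Klra10 at 12.4, 15.3 and 8.20 CPM. Of the transcript words, 62.0% of those of Klra10, 53.4% of Klrc3, 43.5% of Klra3, 29.3% of Klra8, 19.4% of Klrb1a, 14.5% of Klra6, 10.7% of Klrb1b, 10.3% of Klra5 and 10.2% of Klra4 recur in relatives.

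**Figure D2:**
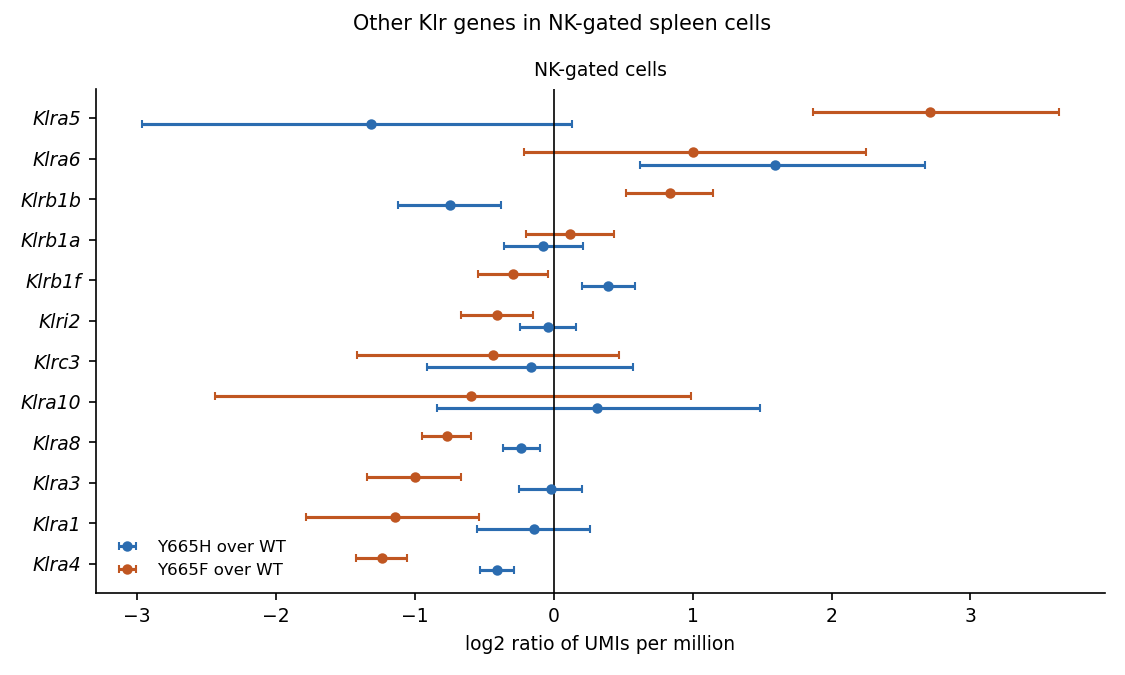
Log2 ratios to WT of 12 further Klr genes in NK-gated spleen cells, ordered by the Y665F ratio, with exact 95% intervals for counting error. Klrb1b lies on opposite sides of 0 in the mutants, and Klra8, Klra3, Klra1 and Klra4 lie below 0 in Y665F.

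Partners and programs of the receptors were read from lists. None of the 14 adaptor and signalling genes measured in the NK gate, among them Hcst, differed 2-fold from WT in either mutant. Tyrobp and Fcer1g are on that list and also define the gate, so their likeness is partly built in. Of 6 ligand genes measured, Ulbp1, a ligand of Klrk1, was higher in both, at 3.81 CPM in WT, 21.1 in Y665H and 14.8 in Y665F, with an interval of the Y665F ratio from 1.08 to 17.2. Among 10 genes of NK maturation, Cx3cr1, a chemokine receptor of mature NK cells, was 9.51 times WT in Y665F (6.65 to 14.0), and Cma1, a mast-cell type protease of mature NK cells, 2.52 times (2.08 to 3.07). Cd27, a marker of less mature NK cells, was 0.445 times WT (0.304 to 0.636) in the same library. In Y665H, Ly6c2 was 0.338 times WT (0.268 to 0.424) and was the only one of the 10 past 2-fold. The median log2 ratio of the 10 genes was -0.18 in Y665F and -0.05 in Y665H, beside -0.11 and -0.02 over all genes. Of 9 cytotoxic genes measured, Gzmb, encoding granzyme B, was 5.64 times WT in Y665F (4.91 to 6.50). Il7r, which innate lymphoid cells also carry, was 0.368 times WT in Y665H (0.278 to 0.483). The Klrg1 ratios changed little when cells with Il7r or Cd200r1 were left out, with log2 values of 1.30 in Y665F and -0.66 in Y665H against 1.19 and -0.73.

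In CD8 T-gated spleen cells 4 of the 6 members with a mean of at least 10 CPM were higher in Y665F. Y665H was close to WT for most of these 4. Klrc1 was at 11.2 CPM in WT, 11.0 in Y665H and 23.01 in Y665F, and Klrc2 at 23.4, 26.2 and 44.8. Klre1 was at 22.1 CPM in WT, 19.4 in Y665H and 42.7 in Y665F, and Klrk1 at 60.1, 49.0 and 85.0. The Y665F ratios to WT were 2.06 (1.67 to 2.57) for Klrc1, 1.92 (1.65 to 2.23) for Klrc2, 1.93 (1.66 to 2.26) for Klre1 and 1.41 (1.28 to 1.56) for Klrk1. Among 7366 genes with a mean of at least 10 CPM in the gate, 0.706% were 2-fold higher and 0.91% were 2-fold lower in Y665F, and Klrc1 was the 1 member past 2-fold. In Y665H 0.434% were 2-fold higher and 0.0543% were 2-fold lower. No member of the 6 with a mean of at least 10 CPM had the opposite pattern, against 0.299% of all genes. The members past 2-fold in Y665F depended on the gate. Without barcodes of a gamma-delta T-cell receptor constant gene, Klrc1 was 2.33, Klrc2 2.22 and Klre1 2.20 times WT. With both Cd8a and Cd8b1 required, Klrc1 was 2.42 and Klrc2 2.06 times WT.

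Klrd1 differed little in these cells, with 201 CPM in WT, 187 in Y665H and 183 in Y665F. Klra7 was at 12.8, 8.66 and 11.5 CPM. The other 3 members had a mean under 10 CPM. Klrg1 was at 7.91 CPM in WT, 1.02 in Y665H and 8.89 in Y665F, and Klra9 at 9.05, 1.02 and 4.90, so the Y665H library had 8 UMIs of each gene. The Klrg1 ratio of Y665H to WT was 0.129 (0.0538 to 0.266), and that of Klra9 was 0.113 (0.0472 to 0.231). Klrb1c was at 4.67, 4.97 and 6.34 CPM. In the B gate of the same libraries all 9 members lay at 4.90 CPM or less.

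The opposite pattern in CD8 T cells depended on the gate. A barcode with a UMI of a gamma-delta T-cell receptor constant gene made up 6.06% of the WT, 5.06% of the Y665H and 12.1% of the Y665F gate. These cells held 19.0% of all Klre1 UMIs of the gate in WT, 30.3% in Y665H and 14.4% in Y665F. For Klrg1 they held 42.2% in WT and 11.0% in Y665F, and 2 of the 8 UMIs in Y665H. These cells need not be alike in the genotypes. The Y665F gate was also deeper, with a median of 8697.5 UMIs a cell against 6735 in WT and 6863 in Y665H. Among the gamma-delta barcodes Klrg1 was at 54.7 CPM in WT, 5.26 in Y665H and 7.75 in Y665F, and Klre1 at 68.8, 121 and 48.5 CPM. Without them, Klre1 was 2.20 times WT in Y665F, and its Y665H ratio went from 0.875 (0.709 to 1.08) to 0.743 (0.580 to 0.948), and Klrk1 was then 1.44 times WT in Y665F (1.29 to 1.60) and 0.775 times in Y665H (0.673 to 0.892). Both then met the opposite pattern, 2 of the 5 members with a mean of at least 10 CPM in that gate, against 0.204% of its 7350 genes. With both Cd8a and Cd8b1 required, Klre1 and Klrk1 met it again, 2 of 5, against 0.396% of 7332 genes. The shares only place these counts, since the members were chosen on this contrast in these libraries. In the standard gate 0 of 6 members met it. The Y665H ratios there were 0.613 (0.475 to 0.786) for Klre1 and 0.671 (0.576 to 0.779) for Klrk1, and the Y665F ratios 1.82 (1.55 to 2.14) for Klre1 and 1.42 (1.28 to 1.58) for Klrk1. Klra7, with a mean under 10 CPM, also met it there, at 9.09 CPM in WT, 5.05 in Y665H and 11.8 in Y665F. Its Y665H ratio was 0.556 (0.364 to 0.833), and its Y665F ratio of 1.30 had an interval from 0.992 to 1.70 that includes 1. Of the members under 10 CPM on average, Klrg1 and Klrb1c met it without the gamma-delta barcodes. Klrg1 was at 4.87 CPM in WT, 0.803 in Y665H and 9.05 in Y665F. Klrb1c was at 3.45, 2.54 and 5.76 CPM, and the interval of its Y665H ratio, 0.397 to 1.33, includes 1. With both CD8 genes required Klrb1c was at 1.71 CPM in WT, 2.16 in Y665H and 5.46 in Y665F, a Y665F ratio of 3.19 (1.85 to 5.86). With both CD8 genes required the Y665F ratio of Klrg1 was 0.853 (0.627 to 1.16), so its direction in Y665F did not hold across gates.

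The share of CD8 T-gated cells with a UMI of Ccl5, a chemokine of memory and effector cells, was 36.9% in WT, 33.3% in Y665H and 77.1% in Y665F. Thinned to 2000 UMIs, the shares were 24.7%, 20.7% and 65.8%. Since Ccl5 itself differed between the genotypes, cells with Ccl5 need not be alike in them. Among these cells, 3 of the 4 members named as higher in Y665F in the whole gate had Y665F levels close to those of WT. Klre1 was at 52.7 CPM in WT, 49.2 in Y665H and 53.3 in Y665F, Klrc2 at 56.2, 64.7 and 55.8, and Klrc1 at 25.5, 26.9 and 28.8. Klrk1 was at 119 CPM in WT, 98.7 in Y665H and 103 in Y665F, below WT in both mutants. In cells without Ccl5, Klre1, Klrc1 and Klrc2 lay at 2.87 CPM or less in each library, while Klrk1 stood at 19.1 CPM in WT, 18.8 in Y665H and 14.5 in Y665F. The share of Klre1 in the whole gate was 5.65% of cells in WT, 5.43% in Y665H and 15.0% in Y665F, and 3.24%, 2.80% and 8.66% after thinning.

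Klra9, Klra7 and Klrg1 were lower in both mutants within the Ccl5 part. Klra9 was at 21.1 CPM in WT, 2.02 in Y665H and 6.15 in Y665F. Klra7 was at 30.4, 21.6 and 14.4 CPM, and Klrg1 at 19.0, 2.36 and 10.7. The Y665F ratios were 0.291 (0.211 to 0.399) for Klra9, 0.474 (0.376 to 0.599) for Klra7 and 0.564 (0.425 to 0.753) for Klrg1, which became 0.905 (0.640 to 1.30) without the gamma-delta barcodes. Of 8 members with a mean of at least 10 CPM here, 0 had the opposite pattern, and 0.216% of 7411 genes did. Of 8 cytotoxic genes measured in the whole gate, Gzmb, Gzmm, Ccl5 and Fasl were over 2-fold higher in Y665F, at 2.53, 2.72, 3.23 and 2.27 times WT. Il2rb, the chain shared by the receptors of interleukin-2 and interleukin-15, went from 151 CPM in WT to 364 in Y665F, or 2.41 times WT (2.28 to 2.55). Ccr9, a homing receptor of the naive list, was 0.226 times WT (0.202 to 0.253) in the same library. In Y665H, Cx3cr1 was 0.355 times WT (0.265 to 0.471). Also in Y665H, Gzma at 0.389 times WT (0.347 to 0.435) and Gzmb at 0.431 times (0.323 to 0.569) were lower and Ccl4 was higher. Tyrobp and Fcer1g were 4.05 and 3.19 times WT in the Y665H gate, where myeloid markers summed to 368 CPM against 124 in WT, and their part was not tested.

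**Figure D3:**
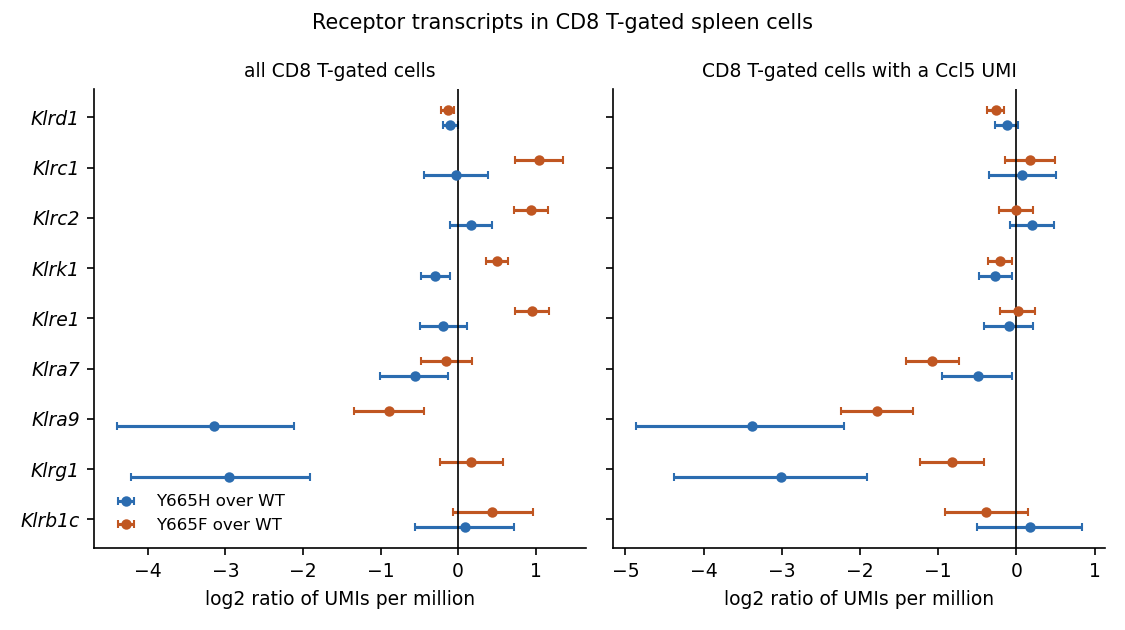
Log2 ratios to WT of the 9 receptor transcripts in all CD8 T-gated spleen cells (left) and in those with a Ccl5 UMI (right), for Y665H and Y665F, with exact 95% intervals for counting error. Klrc1, Klrc2, Klre1 and Klrk1 lie above 0 in Y665F on the left and near or below 0 on the right, and Klra9 and Klrg1 lie far below 0 in Y665H in both panels.

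LN libraries have replicates but only the Y665F allele, so they bear on 1 side of the pattern. Summed counts of the CD8 T gate were fitted with edgeR's quasi-likelihood test over all 7 libraries, and a gene was called where the adjusted p was below 0.05 and the log2 fold change exceeded 1 in size. Of 9530 genes tested, 1.33% were called in homo against WT, 0.504% in het against WT and 0.0105% in homo against het. Of the 9 members, 5 passed the filter on low counts, Klre1, Klrk1, Klrc1, Klra7 and Klrd1, and Klrg1, Klrb1c, Klra9 and Klrc2 did not. The filter asked for 4.198 CPM in 2 or more libraries, which Klrd1 and Klrk1 reached in WT, while Klre1 and Klra7 reached it in 0 and Klrc1 in 1 of the 2 WT libraries. Klre1, Klra7 and Klrc1 therefore entered the test only through the mutant libraries. In homo against WT 2 members were called, Klre1 and Klrk1, both higher, and in het against WT 1, Klre1. Neither was called between homo and het. These genes were chosen with values of the same libraries known, so the p-values are no independent evidence. Of the gamma-delta T-cell markers, Tcrg-C1 was also called higher in homo against WT (log2 fold change 3.66, edgeR adjusted p = 0.00947) but not in het (edgeR adjusted p = 0.471), and Trdc was called in neither. The markers of that list summed to 8.83 and 4.203 CPM in WT, 10.2, 7.99 and 1.91 for het and 19.7 and 14.7 for homo. Without barcodes of a gamma-delta constant gene the log2 fold changes in homo were 2.73 for Klre1 (edgeR adjusted p = 0.00282) and 1.48 for Klrk1 (edgeR adjusted p = 0.0350).

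Klre1 was at 4.08 and 1.40 CPM in WT, 13.3, 11.0 and 24.8 for het and 9.10 and 15.5 for homo. All 5 mutant libraries were above both WT libraries, and the share of all genes with that order was not counted. The log2 fold change was 2.70 ± 0.50 (SE, edgeR adjusted p = 0.00296) in homo and 2.63 ± 0.42 (edgeR adjusted p = 0.00120) in het. The WT libraries held 6 and 5 UMIs of Klre1, so the size of the fold rests on few molecules. Without WT replicate 2 the changes were 1.78 in homo and 1.71 in het and neither was called (edgeR adjusted p = 0.233 and 0.397). Without homo replicate 2 the change in homo was 2.02 and not called (edgeR adjusted p = 0.428), nor was it with both CD8 genes required (2.79, edgeR adjusted p = 0.143). Over all alternatives the adjusted p of edgeR or DESeq2 lay between 5.09e-07 and 0.428 in homo and between 1.56e-09 and 0.397 in het.

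Klrk1 was at 4.76 and 5.32 CPM in WT, 11.5, 8.58 and 9.53 for het and 18.2 and 12.2 for homo. The 3 groups did not overlap, but the log2 fold change of homo against het was only 0.38 ± 0.28 (edgeR adjusted p = 0.858). The share of all genes with such a separation was not counted. The log2 fold change was 1.45 ± 0.36 in homo (edgeR adjusted p = 0.0369) and 1.07 ± 0.30 in het (edgeR adjusted p = 0.110). The call in homo was lost with DESeq2, without the 2 shallow libraries, without any 1 of the 4 WT and homo libraries, with at least 500 genes a barcode, with both CD8 genes and with paired receptor chains required, while the log2 fold change stayed between 1.31 and 1.81. Over all alternatives the adjusted p of edgeR or DESeq2 lay between 0.0110 and 0.333.

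Klrc1 was at 3.40 and 5.32 CPM in WT, 15.5, 6.22 and 22.9 for het and 9.10 and 14.3 for homo. Its log2 fold changes of 1.51 ± 0.50 in homo and 1.497 ± 0.40 in het did not pass (edgeR adjusted p = 0.141 and 0.0857). Klra7 was at 3.40 and 1.96 CPM in WT, 4.05, 5.62 and 1.91 for het and 7.59 and 5.46 for homo, and did not pass in either comparison. Klrd1 was at 160 and 176 CPM in WT, 173, 180.0 and 171 for het and 184 and 161 for homo. Its groups overlapped, with log2 fold changes of 0.04 ± 0.13 and 0.11 ± 0.11. Of the members that were not tested, Klrc2 lay between 0.280 and 4.57 CPM, Klra9 at or under 2.94, Klrb1c at or under 3.81 and Klrg1 at or under 1.91 CPM in every library.

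**Figure D4:**
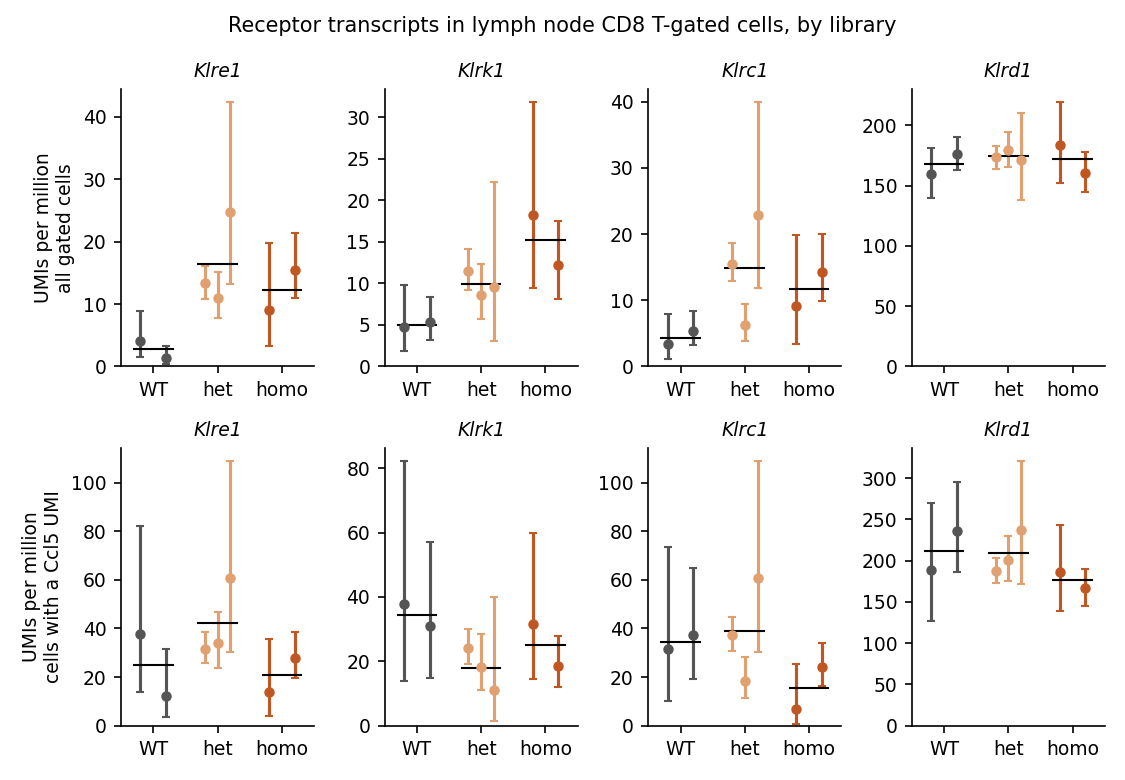
Levels of Klre1, Klrk1, Klrc1 and Klrd1 in lymph node CD8 T-gated cells, in CPM, with 1 point a library, exact 95% Poisson intervals and a bar at the group mean of 2 WT, 3 het and 2 homo libraries. In all gated cells (top) Klre1 and Klrk1 are above WT in every mutant library, and in cells with a Ccl5 UMI (bottom) the groups overlap for Klre1 and Klrc1, and Klrk1 is not above WT in het.

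Ccl5 UMIs were carried by 8.14 and 7.17% of CD8 T-gated cells in the WT libraries, 36.5, 27.4 and 30.4% for het and 39.3 and 47.9% for homo. Thinned to 300 UMIs a cell, the shares were 3.98 and 2.66% in WT, 17.2, 13.4 and 23.8% for het and 31.4 and 32.9% for homo. Within the cells with Ccl5, 3 of 5039 genes tested (0.0595%) were called in homo against WT, and 384 had an unadjusted p under 0.05. Of the 9 members, 4 passed the filter there, Klre1, Klrd1, Klrk1 and Klrc1, and 0 of the 4 were called. The cutoff of that filter was 31.01 CPM, and Klrd1 reached it in all 7 libraries. Klrk1 reached it in 2 WT, 0 het and 1 homo libraries, Klrc1 in 2, 2 and 0, and Klre1 in 1, 3 and 0. Klrk1, Klrc1 and Klre1 thus passed mainly through WT or het libraries, which limits what their fold changes in homo show. Ccl5 was itself 1 of the 3 genes called there (log2 fold change 1.048, edgeR adjusted p = 0.00199), so the Ccl5 UMI did not select like cells in each genotype. Klre1 was at 37.7 and 12.4 CPM in WT, 31.6, 33.9 and 60.8 for het and 14.0 and 28.0 for homo. Klrk1 was at 37.7 and 31.01 CPM in WT, 24.1, 18.3 and 11.1 for het and 31.5 and 18.6 for homo, and Klrc1 at 31.4 and 37.2, 37.3, 18.3 and 60.8, and 7.01 and 24.1. The log2 fold changes in homo were 0.30 ± 0.55 for Klre1, -0.61 ± 0.52 for Klrk1, -0.73 ± 0.52 for Klrc1 and -0.33 ± 0.20 for Klrd1. The WT levels of Klre1, Klrk1 and Klrc1 rest on 4 to 12 UMIs a library. Homo replicate 1 and het replicate 3 held 285483 and 180973 UMIs in this gate, against 159042 and 322500 in the WT libraries. Their levels rest on few UMIs as well. The difference between all gated cells and those with Ccl5 was not tested because the cells overlap.

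Receptor sharing was counted against all CD8 T-gated cells of the same library with paired chains, with or without a member UMI. Of those with a UMI of a member other than Klrd1, 0 of 15 and 0 of 36 in WT shared their receptor with another cell. In het 1 of 148, 3 of 62 and 0 of 22 did, and in homo 0 of 25 and 0 of 79. Among gated cells with paired chains and no such UMI, 2 of 898 and 2 of 1764 in WT, 5 of 1430, 48 of 1088 and 6 of 788 in het, and 2 of 991 and 16 of 1285 in homo did. Several effector genes rose in the same gate. Of 9 cytotoxic genes tested, 4 were called higher in homo and in het against WT, Ccl5, Gzmm, Ifng and Ccl4. The log2 fold changes in het were 2.48 ± 0.21, 1.86 ± 0.21, 1.66 ± 0.30 and 1.41 ± 0.29, and that of Ccl5 in homo was 3.39 ± 0.23. Of 8 memory and effector genes tested, 5 were called higher in homo, Cd44, Tbx21, Cxcr3, Ly6c2 and S1pr5, and of them Tbx21 and Cxcr3 in het. Tbx21, the T-box factor of effector cells, rose by 1.71 ± 0.25 in homo and 1.44 ± 0.21 in het. Cxcr3, a chemokine receptor of effector cells, rose by 1.51 ± 0.15 and 1.052 ± 0.14. Il18r1 and Il18rap, the chains of the interleukin-18 receptor, were called higher in both among 10 cytokine receptor genes. The naive list gave 1 call of 8, Ccr9, which fell by 1.69 ± 0.21 in homo. Of 5 NK maturation genes tested, S1pr5 and Ly6c2 were called higher in homo and 0 were called in het, where 3 had an unadjusted p under 0.05 by edgeR. None of 11 adaptor and signalling genes and none of 6 ligand genes tested was called in either comparison, and none of them had an unadjusted p under 0.05. In order of likeness over the 7 libraries, Prag1, Mdn1, Rps9, Ndufa8 and Rnf5 followed the summed level of the 9 members most closely (Pearson r of log2 CPM from 0.98 to 0.96 over 5836 genes), a sum in which most UMIs are those of Klrd1.

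NK cells were too few in LN for a test. The gate held 24 and 20 WT, 15, 11 and 6 het, and 5 and 6 homo cells. Pooled over the libraries of a group, Klrb1c was at 739 CPM in WT, 809 in het and 737 in homo, and Klrk1 at 756, 839 and 737. Klre1 was at 554, 570 and 614 CPM and Klrd1 at 672, 630 and 614. The homo levels of Klrb1c, Klrk1 and Klre1 came from replicate 2 alone, at 935, 935 and 779 CPM in its 6 cells, and the 5 cells of replicate 1 held 0 UMIs of each. Klrg1 had 2 UMIs in WT, 5 in het and 0 in homo, where 3 UMIs would be 368 CPM. Pooled Klrg1 levels were 33.6 CPM in WT and 74.9 in het, and they rest on these few UMIs. Whether LN holds a difference of the size measured in spleen was not tested.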

How the data were processed

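Single-cell suspensions were run as droplet libraries. The deposited matrices hold raw UMI counts per gene and barcode. Per the labels, the authors used Cell Ranger 5.0, mm10 and Seurat 4.0. The methods name later versions of both tools, and the file headers of spleen and marrow a later Cell Ranger than those of LN. The methods name a 5′ kit and the labels a 3′ kit. The deposited receptor tables hold UMI counts per chain. Barcodes needed 200 genes or more and no more than 10% mitochondrial UMIs, and those with the highest doublet scores were removed at 0.8% per 1000 barcodes. Marker UMIs gated the cells, and the full set of excluding markers is not reported here. Counts were summed per library and gate and tested with edgeR 4.0.16 (quasi-likelihood, TMM, filterByExpr, Benjamini-Hochberg over all genes) in 1 model of 7 LN libraries. A call required an adjusted p below 0.05 and a log2 fold change above 1 in size. DESeq2 1.42.0, other gates and filters, a replicate block and libraries left out in turn were alternatives. Spleen ratios carry exact 95% intervals that cover counting error only. Total depth was 2621583 to 16101373 UMIs per LN library and 36889328 to 47206322 per spleen library. On simulated counts for homo against WT, 93.0% of the 4-fold changed genes tested were recovered among 9530 genes (CD8 T gate). Among 5039 genes (with Ccl5) it was 96.8%. False calls made up 2.12 and 3.70% of the calls. The changed genes were drawn at random over all levels, so these shares do not describe members near the filter cutoff. The members and gene lists were chosen with earlier results of these data known. Named were the members, other Klr genes reaching 10 CPM in a gate, list genes called or 2-fold changed, at most 6 a list, and the 5 genes closest to the members' sum.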

Additional observations from a re-analysis of the deposited data

Results flagged for a closer look

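Klra7 in CD8 T-gated cells had ratios on opposite sides of 1 in the tissues. The ratio of homo to WT mean CPM in LN was 2.43, from 2.68 to 6.52 CPM. Both homo libraries were above both WT libraries, and the share of all genes with that order was not counted. In spleen the Y665F ratio was 0.901, from 12.8 to 11.5 CPM. The spleen interval, 0.715 to 1.14, includes 1, and the spleen ratio was 1.30 with both CD8 genes required and 1.15 without gamma-delta barcodes. The difference was not tested.

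Klrc1 in CD8 T-gated cells with Ccl5 also had ratios on opposite sides of 1. The LN ratio was 0.453, from 34.3 to 15.5 CPM, and the spleen ratio was 1.13, from 25.5 to 28.8 CPM. The spleen interval, 0.907 to 1.41, includes 1. The homo libraries stood at 7.01 and 24.1 CPM, and the LN ratio was 0.701 without homo replicate 1 and 0.204 without homo replicate 2. The LN levels rest on 33 UMIs in homo and 17 in WT, summed over the libraries of each group. The difference was not tested.

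Klrd1 was measured in CD4 T-gated LN cells, which entered no comparison. Its mean was 27.2 CPM over the 5 Y665F libraries against 9.19 CPM over the 2 WT libraries, and no test was run. By group the means were 23.4 CPM in het and 32.8 in homo. With UMIs pooled, the levels were 11.2 CPM in WT, 29.5 in het and 43.2 in homo, from 17, 98 and 20 UMIs. The gates of het replicate 3 and homo replicate 1 held only 55487 and 51226 UMIs, yet count fully in the means. In the CD4 T gate of spleen it was at 18.3 CPM in WT and 19.8 in Y665F, a ratio of 1.08 (0.811 to 1.43).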

How the results depend on the processing

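Of the single-gene values under an alternative, 453 were counted as the same. For LN values this asked only for an unchanged sign and an unchanged call, so their size could still change. In LN, 13 lost a call, 6 gained one and 8 changed sign. The 48 values that moved were all from spleen, where no call was made and no spread between mice was measured. They were 13 ratios and 35 shares of cells with a UMI, while 19 such shares stayed the same, so most spleen shares depended on the processing. DESeq2 called 61 genes in homo against WT, 16 in het against WT and 0 in homo against het. Without the filter on low counts 87 were called in het against WT and 10 in homo against het. Homo against het gave 2 with only those groups fitted, 6 without the shallow libraries, 6 with at least 500 genes a barcode, 4 with both CD8 genes, 5 without gamma-delta barcodes and 2 with paired chains. In cells with Ccl5, homo against WT gave 6 with at least 2 Ccl5 UMIs and 9 without the shallow libraries. Leaving out 1 library gave 35 to 142 calls in homo against WT, 4 to 56 in het against WT, 0 to 5 in homo against het and 0 to 9 in cells with Ccl5. The lowest counts came without homo replicate 2 (35) and WT replicate 2 (56 in homo, 4 in het), and het against WT gave 22 without het replicate 1. The opposite pattern in spleen CD8 T cells was met by 3 of the 6 members of the standard gate with both CD8 genes and by 2 without gamma-delta barcodes. With 10 CPM asked for in each gate it was 2 of 5 in both, and over all 9 members 3 and 4. Of all genes with that mean, 0.396% met it with both CD8 genes and 0.204% without gamma-delta barcodes. The members were chosen on this contrast, so the shares only place the counts. Klrd1 in homo was -0.0116 with at least 500 genes. In cells with Ccl5, Klre1 in homo was -0.0457 with at least 2 Ccl5 UMIs. Over libraries left out there, Klre1 ranged from -0.62 to 1.06 in homo and -0.12 to 1.49 in het, with -0.56 in homo and -0.12 in het without WT replicate 2 and -0.62 in homo without homo replicate 2. Klrc1 in het ranged from -0.37 to 0.22, with 0.12 without WT replicate 2 and 0.22 without het replicate 2, and Klrd1 in het from -0.20 to 0.10, the highest without WT replicate 2. The causes were not tested. Of the gained calls, 4 were in homo and 2 in het against WT, all in the whole CD8 T gate. Among them, Klrc1 in homo was called without the filter (1.51). The labels do not say whether replicate numbers pair the samples. The replicate block gave 120, 36, 1 and 3 calls and changed no member's call. With WT and homo numbers crossed, added after seeing the data, 165 genes were called, and 4 in cells with Ccl5. Tests of NK cells in LN and marrow were not run, since at least 1 library of each tissue held fewer than 20 such cells.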

Other observations

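In marrow, the NK gate held 22 WT, 20 Y665H and 4 Y665F cells over 2 libraries each. Klrk1 was at 662 CPM in WT and 337 in Y665H, Klrb1c at 552 and 214, Klre1 at 276 and 61.2 and Klrd1 at 386 and 367. Klrg1 had 0, 1 and 0 UMIs in WT, Y665H and Y665F. Klra7 was at 165 CPM in WT and 214 in Y665H, and Klra9 at 165 and 122. These levels rest on at most 24 UMIs a gene and no test was run.

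With Klrd1 left out of the sum, a choice made after the values were seen, Chsy1, Hopx, Sla, Tbx21 and Lpin1 followed the other 8 members most closely over the 7 LN libraries in CD8 T-gated cells (Pearson r of log2 CPM from 0.98 to 0.96 over 5836 genes). Hopx was at 48.9 and 41.2 CPM in WT, 90.9, 72.5 and 95.3 for het and 89.5 and 98.2 for homo. The points share library depth and cell make-up.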
